A study of Mus musculus with 12 samples.

Results

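IFN-γ raised 702 genes and lowered 230 genes in CT26 tumor cells, out of 11878 genes tested. The comparison set 3 libraries of CT26 cells labelled IFN-γ against 3 libraries labelled no treatment, 6 of the 12 libraries of the series, and its members were chosen by those labels. CT26 is an established colon carcinoma line of BALB/c mouse origin grown in culture, so each result describes 1 line without host cells. Per the study's figure legend IFN-γ was given at 100 ng/ml for 8 hours. The other 6 libraries came from CT26 cells given CX3CL1 (fractalkine) at 2 µg/ml, alone in 3 libraries and together with IFN-γ in 3. The labels of the treated cells and that legend name IFN-γ only. The study's text on these stimulations also mentions TNF-α, and whether TNF-α was added to these cultures cannot be told from the labels. The labels call the 3 libraries of a group biological replicates and do not say how the cultures were set up, so p-values measure the spread between these libraries.

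IFN-γ binds the receptor chains IFNGR1 and IFNGR2, whose kinases JAK1 and JAK2 phosphorylate STAT transcription factors. STAT pairs bind the gamma-activated sequence (GAS) in gene promoters, and complexes that hold STAT2 and IRF9, like the IRF factors themselves, bind the interferon-stimulated response element (ISRE). In tumor cells the cytokine is known for raising MHC class I presentation, the immunoproteasome, T-cell-attracting chemokines and PD-L1.

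Expression was measured as TPM (transcripts per 1000000), a share of each library's total per gene length, and differences are given as log2 fold changes of TPM + 1 with their standard errors, which understates the change of genes near 0. Called means an adjusted p under 0.05 (limma, Benjamini-Hochberg). The table writes mouse symbols in capitals. The depth behind the values is unknown, because TPM keeps no read number, and between 10613 and 10811 symbols reached 1 TPM in each of the 6 libraries. Untreated library 1 stood somewhat apart, since the median absolute log2 difference between genes was 0.186 to untreated library 2 and 0.170 to library 3, against 0.121 between libraries 2 and 3. IFN-γ library 1 did likewise, at 0.144 and 0.146 to IFN-γ libraries 2 and 3, against 0.0971 between IFN-γ libraries 2 and 3. Of the 8 carcinoma markers listed, EPCAM was at 0 in all 6 libraries and CDH1, KRT8, KRT19, VIL1 and CDX2 stayed under 1 TPM. These were 6 of the 8, while KRT18, whose values are given with the junction genes below, and KRT20 were expressed. KRT20 lay at 16.8, 10.9 and 10.8 TPM untreated and 14.5, 10.8 and 9.70 TPM with IFN-γ. Of the 6 mesenchymal markers listed, the intermediate filament gene VIM lay between 2423 and 4831 TPM, and S100A4 is described below. VIM and S100A4 were lower with IFN-γ, whereas 2 of the 6 markers had a positive log2 fold change, at most 0.54. Of 20 leukocyte markers 18 stayed under 1 TPM, 6 of them at 0 in all 6 libraries, including CD3E and TYROBP. The summed level of the leukocyte markers ran from 1.95 to 2.54 TPM untreated and from 2.65 to 4.47 TPM with IFN-γ, and all 4 endothelial markers stayed at or below 0.0352 TPM.

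The genes called higher made up 5.91% of the genes tested and the genes called lower 1.94%. Of the genes called higher, 299 rose by at least 1 on the log2 scale and 144 by at least 2, whereas 32 genes called lower fell by at least 1. The values of 931 of the 932 called genes did not overlap between the groups. Among all genes tested, 20.6% did not overlap in the higher direction and 13.7% in the lower. The genes were called on these same values, so neither this separation nor the TPM shares that follow are separate support for the calls. The genes called higher held between 2.55% and 3.11% of all TPM in the untreated libraries and between 6.46% and 8.02% in the IFN-γ libraries. The genes called lower held 3.46% to 3.84% untreated and 2.07% to 2.39% with IFN-γ. With the replicate number as a block in the fit, 1353 genes were called higher and 576 lower, among them all 932 called without it. The balance of the calls depended on scaling, with 640 higher and 351 lower after median-ratio scaling and 569 higher and 538 lower after quantile normalization. Without untreated library 3 or IFN-γ library 3 the fit called 423 or 452 genes higher. The genes called lower numbered 132, 107, 130 and 99 without untreated library 1, untreated library 3, IFN-γ library 1 and IFN-γ library 3.

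**Figure D1:**
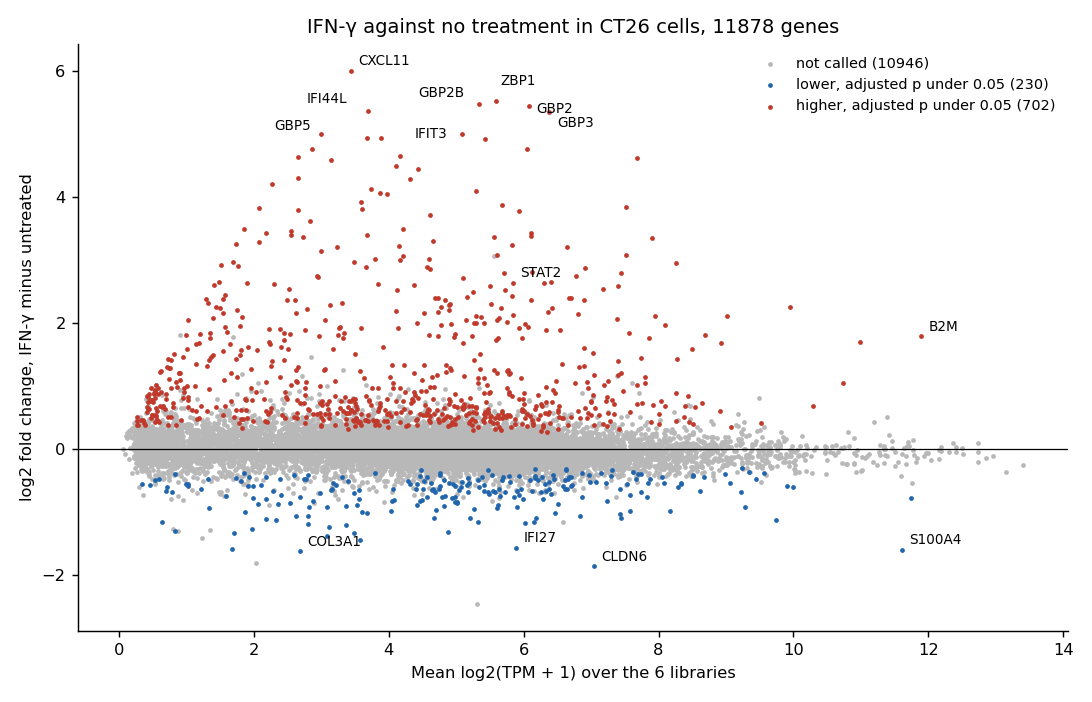
Each point is 1 of the 11878 genes tested, with its mean log2(TPM + 1) over the 6 libraries on the x axis and its log2 fold change, IFN-γ minus untreated, on the y axis. The 702 genes called higher (red) reach 6.0 and the 230 called lower (blue) reach -1.86.

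The promoters of 6 genes are shown, 1 per family, because these genes had the largest rises among those whose promoter window in RefSeq (build GRCm38.p6) held a GAS or ISRE match. Each line holds the 250 bases before the annotated start, read 5′ to 3′ on the gene's strand, with matches in capitals. The ISRE was searched as GAAANNGAAA on both strands, the other strand reading TTTCNNTTTC, and the GAS as TTCNNNGAA, which reads alike on both strands.
GBP2B, chr3:142594597-142594846, plus strand: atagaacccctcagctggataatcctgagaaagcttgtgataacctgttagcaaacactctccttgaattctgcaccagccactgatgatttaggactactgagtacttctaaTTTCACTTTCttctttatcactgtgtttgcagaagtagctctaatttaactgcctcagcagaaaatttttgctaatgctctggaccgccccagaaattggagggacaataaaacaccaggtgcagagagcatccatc
IFIT3, chr19:34583279-34583528, plus strand: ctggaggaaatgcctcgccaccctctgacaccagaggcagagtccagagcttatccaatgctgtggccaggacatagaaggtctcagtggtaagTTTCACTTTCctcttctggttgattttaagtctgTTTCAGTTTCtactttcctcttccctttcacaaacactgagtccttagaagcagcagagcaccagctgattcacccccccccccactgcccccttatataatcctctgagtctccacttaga
TGTP1, chr11:48992247-48992496, minus strand: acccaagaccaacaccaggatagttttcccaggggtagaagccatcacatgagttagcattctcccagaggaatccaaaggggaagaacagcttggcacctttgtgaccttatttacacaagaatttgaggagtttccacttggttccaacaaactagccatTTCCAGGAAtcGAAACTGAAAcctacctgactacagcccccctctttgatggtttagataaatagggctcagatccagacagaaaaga
CXCL10, chr5:92348890-92349139, minus strand: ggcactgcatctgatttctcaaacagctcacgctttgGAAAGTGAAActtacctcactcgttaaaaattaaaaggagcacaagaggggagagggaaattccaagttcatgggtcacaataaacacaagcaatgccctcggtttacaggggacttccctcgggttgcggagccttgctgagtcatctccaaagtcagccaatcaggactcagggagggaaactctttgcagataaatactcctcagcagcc
PHF11B, chr14:59341331-59341580, minus strand: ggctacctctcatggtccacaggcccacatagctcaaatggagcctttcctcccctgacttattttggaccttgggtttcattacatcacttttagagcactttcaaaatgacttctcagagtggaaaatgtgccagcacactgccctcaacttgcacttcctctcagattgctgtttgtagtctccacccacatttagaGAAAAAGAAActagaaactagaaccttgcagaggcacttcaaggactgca
SAA3, chr7:46715677-46715926, minus strand: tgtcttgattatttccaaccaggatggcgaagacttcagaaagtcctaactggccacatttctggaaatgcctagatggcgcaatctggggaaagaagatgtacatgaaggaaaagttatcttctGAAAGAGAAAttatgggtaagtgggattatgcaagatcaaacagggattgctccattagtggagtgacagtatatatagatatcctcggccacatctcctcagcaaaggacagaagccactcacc
The IFIT3 window held 2 ISRE matches, 156 to 147 and 122 to 113 bases before the start. TGTP1 held a GAS match 88 to 80 bases and an ISRE match 77 to 68 bases before the start, with no overlap between them. The ISRE match lay 137 to 128 bases before the start in GBP2B, 213 to 204 in CXCL10, 50 to 41 in PHF11B and 125 to 116 in SAA3.

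Promoter windows from 250 bases before to 50 bases after the start were in the RefSeq table for 549 of the 702 genes called higher and 181 of the 230 called lower. An ISRE match occurred in 14.9% of the 684 windows of genes called higher and in 39.7% of the 131 windows of genes that rose by at least 2 on the log2 scale. It occurred in 3.44% of all 32851 windows in the table, in 4.11% of the windows of genes called lower and in 2.41% of those of genes not called. A GAS match occurred in 11.1% of the windows of genes called higher, 12.2% of those rising by at least 2, 5.02% of those called lower, 6.72% of those not called and 8.30% of all windows. Among the guanylate-binding proteins 5 of 6 windows held an ISRE match, and among the 19 windows of cholesterol synthesis genes 1 did. Duplicated genes share promoter sequence, so these windows are not independent, and a match is a description of letters and not of binding.

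The receptor chains and kinases of the pathway were expressed before treatment and did not pass the test, whereas STAT2 and STAT3 downstream did. IFNGR1 lay at 28.0, 27.1 and 24.5 TPM untreated and 23.6, 24.1 and 24.1 TPM with IFN-γ. IFNGR2 lay at 39.3, 26.5 and 30.2 TPM untreated and 46.2, 39.8 and 49.4 TPM with IFN-γ, groups that did not overlap (log2 fold change 0.49 ± 0.16, adjusted p = 0.0831). JAK1 and JAK2 had log2 fold changes of 0.06 and -0.04. STAT2, a partner of IRF9, rose from 26.9, 16.1 and 24.6 TPM to 123, 129.5 and 181 TPM, a log2 fold change of 2.64 ± 0.22 (adjusted p = 7.64e-06). All treated libraries lay above all untreated libraries. STAT3, a factor of IL-6-type cytokine signaling, rose by 0.80 ± 0.17 (adjusted p = 0.00887), and STAT5A, STAT5B and STAT6 had log2 fold changes of 0.15, 0.06 and 0.17 without passing. In all, 3 of the 13 receptor and JAK-STAT genes tested were called higher. With the replicate block 6 were, the added genes being IFNGR2 (adjusted p = 0.00546), the type I interferon receptor chain IFNAR2 (adjusted p = 0.00111) and the kinase TYK2 (adjusted p = 0.0227). That block called 1353 of all 11878 genes tested higher.

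Among the IRF transcription factors 4 of 7 tested were called higher. IRF1, an early IFN-γ target that activates many later genes, lay at 20.5, 18.7 and 19.4 TPM untreated and 78.7, 77.6 and 166 TPM with IFN-γ (log2 fold change 2.31 ± 0.28, adjusted p = 0.000152). Its treated value in library 3 was the highest of the 6. IRF7, known for amplifying type I interferon responses, rose from 112, 21.6 and 43.7 TPM to 672, 652 and 764 TPM, with untreated library 1 far above the other untreated libraries (log2 fold change 3.84 ± 0.41, adjusted p = 5.2e-05). IRF9, the DNA-binding partner of STAT2, rose from 25.5, 22.9 and 30.3 TPM to 57.4, 57.1 and 59.5 TPM. IRF5 rose from under 1 TPM in each untreated library to 4.40, 5.60 and 10.1 TPM. IRF2, IRF3 and IRF8 had log2 fold changes of 0.37, -0.06 and 0.06 and did not pass.

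Of 16 feedback inhibitors tested 2 were called higher, beside 5.91% of all genes tested. USP18, which removes ISG15 from proteins and restrains type I interferon receptor signaling, rose from 42.6, 21.9 and 34.9 TPM to 257, 287 and 373 TPM (log2 fold change 3.20 ± 0.29, adjusted p = 1.39e-05). SOCS1, an inhibitor of JAK kinases, lay at 10.4, 9.73 and 12.9 TPM untreated and 18.5, 19.1 and 31.9 TPM with IFN-γ (log2 fold change 0.97 ± 0.25, adjusted p = 0.0327). The SOCS1 call was lost without untreated library 1, 2 or 3 (adjusted p = 0.0866, 0.109 and 0.0611) and without IFN-γ library 3 (adjusted p = 0.146). SOCS3 had a log2 fold change of 0.50 ± 0.20 and did not pass (adjusted p = 0.169).

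**Figure D2:**
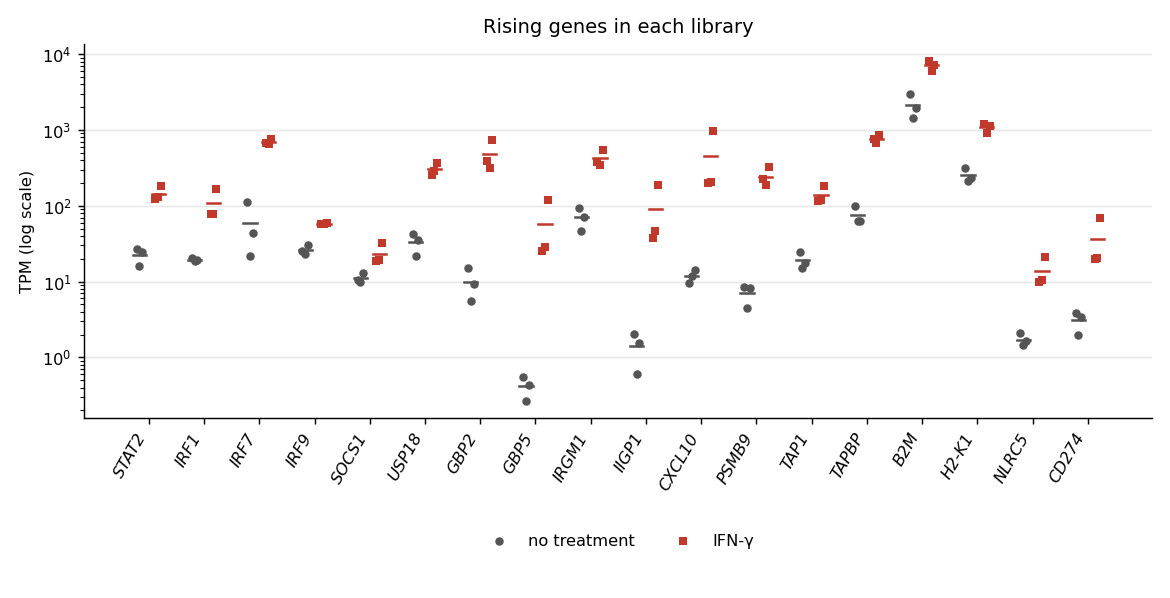
TPM on a log scale for 18 genes in each of the 6 libraries, with untreated libraries as grey circles, IFN-γ libraries as red squares and group means as bars. Every IFN-γ library lies above every untreated library for each gene shown.

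All 11 guanylate-binding proteins tested rose, with a median log2 fold change of 4.10 against 0.03 over all genes tested. These are large GTPases that attack the vacuoles of intracellular pathogens. The genes lie in groups, 5 on chromosome 3 between positions 142493978 and 142638008 and 6 on chromosome 5 between 105014150 and 105346472 (GENCODE vM21, GRCm38). GBP2, whose untreated values were 15.1, 5.49 and 9.39 TPM, reached 389.8, 311 and 734 TPM (log2 fold change 5.44 ± 0.36, adjusted p = 2.89e-06). GBP3 rose from 18.9, 7.65 and 11.7 TPM to 472, 423 and 727 TPM, a log2 fold change of 5.34 ± 0.29. GBP5 rose from 0.557, 0.265 and 0.437 TPM to 25.2, 28.5 and 118 TPM, with treated library 3 more than 4 times either other treated library. GBP8 had the smallest rise of the family, from 0.234, 0.0476 and 0.231 TPM to 2.52, 1.11 and 3.43 TPM (log2 fold change 1.46 ± 0.28, adjusted p = 0.00542). GBP2B, whose promoter is shown above, rose by 5.46 ± 0.40 and shares sequence with GBP2, so reads may be split between them.

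Of 13 immunity-related GTPases tested 10 rose, with a median of 3.37. This family also acts on pathogen vacuoles in mice. IIGP1 (Irga6) rose from 2.05, 0.61 and 1.53 TPM to 37.7, 46.8 and 189 TPM (log2 fold change 4.93 ± 0.56, adjusted p = 9.1e-05). IRGM1, a regulator of the other members, was the most abundant before treatment, at 94.8, 46.2 and 71.5 TPM, and reached 384, 341 and 541 TPM. TGTP1 rose from 2.62, 0.82 and 1.89 TPM to 54.4, 64.5 and 146 TPM, and its near-identical copy TGTP2 from 6.76, 2.89 and 4.62 TPM to 41.8, 51.9 and 106 TPM. GM12250 rose by 4.64 ± 0.64. GM5431, which stayed under 4 TPM, lost its call without each library in turn except IFN-γ library 2, at adjusted p between 0.066 and 0.125. IRGQ had a log2 fold change of 0.05 and did not pass.

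The 13 MHC class I heavy chain genes tested all rose, with a median of 1.84. H2-K1 rose from 311, 212 and 231 TPM to 1203, 918 and 1122 TPM (log2 fold change 2.11 ± 0.19, adjusted p = 1.31e-05). H2-D1 rose from 195, 111 and 121 TPM to 661, 459 and 523 TPM, a log2 fold change of 1.96 ± 0.25. Among the non-classical chains, H2-T23 (Qa-1) rose from 12.4, 5.61 and 6.53 TPM to 64.6, 57.5 and 68.5 TPM, and H2-Q4 from 87.4, 49.9 and 63.2 TPM to 438, 398 and 539 TPM. The other 8 genes of the list of 21 had too low a mean to be tested, H2-Q6, H2-Q7, H2-Q8 and H2-Q9 being at 0. CT26 carries the BALB/c haplotype while mm10 holds the C57BL/6J one, and the heavy chains resemble each other, so the level of a single heavy chain gene is uncertain.

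Genes that load peptides on MHC class I rose, and the general chaperones of the same pathway did not pass. B2M, the light chain, went from 2994, 1457 and 1964 TPM to 8146, 6083 and 7246 TPM (log2 fold change 1.80 ± 0.25, adjusted p = 0.000395), the largest gain in mean TPM among the peptide-loading genes. TAP1, a subunit of the peptide transporter, rose from 24.6, 15.1 and 17.7 TPM to 117, 118 and 183 TPM. TAP2 rose from 59.6, 28.0 and 40.3 TPM to 196, 98.6 and 189 TPM and TAPBP (tapasin) from 99.4, 63.6 and 63.8 TPM to 760.0, 673 and 872 TPM. All 4 genes were separated between the groups. TAPBPL, the trimming peptidase ERAP1 and the class I transactivator NLRC5 rose by 1.97, 1.52 and 2.37. CALR, CANX and PDIA3 had log2 fold changes of 0.23, -0.11 and 0.08, so that 7 of 10 loading genes tested were called.

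Of 6 immunoproteasome genes 5 rose. The catalytic subunit PSMB9 rose from 8.56, 4.49 and 8.22 TPM to 225, 185 and 321 TPM (log2 fold change 4.92 ± 0.33, adjusted p = 2.89e-06). PSMB8 rose from 26.7, 8.83 and 15.6 TPM to 226, 193 and 257 TPM and PSMB10 from 39.4, 41.3 and 43.5 TPM to 274, 238 and 349.9 TPM. The activator subunits PSME1 and PSME2 rose by 1.68 ± 0.15 and 1.82 ± 0.15. The assembly factor POMP had a log2 fold change of 0.08 (adjusted p = 0.706). Of the 14 constitutive core subunits none was called by limma, none had an unadjusted p under 0.05, and their median log2 fold change was 0.04. PSMB5, PSMB6 and PSMB7, the subunits that PSMB8, PSMB9 and PSMB10 replace, had log2 fold changes of 0.13, 0.14 and 0.14. The RefSeq windows of PSMB9 and TAP1, divergent neighbors on chromosome 17, overlap by 275 bases, and neither holds a GAS or ISRE match to the letters searched.

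Of 5 genes of the MHC class II list tested 1 was called higher, beside 5.91% of all genes tested, and 9 others had too low a mean to be tested. CIITA, the class II transactivator, was at 0 without treatment and reached at most 0.013 TPM with IFN-γ, and H2-AB1 was at 0 in all 6 libraries. CD74, the invariant chain, lay at 1.76, 0.0919 and 0.753 TPM untreated and 13.7, 1.23 and 5.44 TPM with IFN-γ, groups that overlapped (log2 fold change 1.78 ± 0.68, adjusted p = 0.142). CD74 was higher with IFN-γ in 3 of 3 numbered pairs, and it was called with the replicate block (adjusted p = 0.000185). RFX5, a DNA-binding factor of class I and class II promoters, was the gene called, at a log2 fold change of 0.78 ± 0.20 (adjusted p = 0.0321). Its call was lost without any of the 3 untreated libraries or IFN-γ library 3, at adjusted p between 0.0638 and 0.126.

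The 3 ligands of the T-cell chemokine receptor CXCR3 rose. They lie together on chromosome 5 between positions 92321347 and 92365485. CXCL10 rose from 9.46, 11.7 and 14.4 TPM to 199.5, 207 and 974 TPM, with treated library 3 far above libraries 1 and 2 (log2 fold change 4.76 ± 0.62, adjusted p = 0.000274). CXCL11 rose from 1.04, 0.105 and 0.117 TPM to 104, 35.5 and 172 TPM and had the largest log2 fold change of all genes tested, 6.0 ± 0.56 (adjusted p = 1.81e-05). The C57BL/6J annotation in RefSeq lists Cxcl11 as a transcribed pseudogene. CXCL9 was at 0 in 2 of 3 untreated libraries and at 0.0194 TPM in the other, and reached 2.24, 0.845 and 2.36 TPM (adjusted p = 0.00334).

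Of the 16 other chemokines tested 8 were called higher and 1 lower. CCL5, an attractant of T cells, rose from 8.67, 6.48 and 7.55 TPM to 59.6, 57.9 and 91.4 TPM (log2 fold change 3.02 ± 0.31, adjusted p = 3.66e-05). CXCL1, a neutrophil attractant, rose from 6.70, 4.03 and 4.15 TPM to 71.7, 39.0 and 54.5 TPM. CCL2, a monocyte attractant, rose from 2.85, 0.669 and 0.374 TPM to 27.5, 10.6 and 27.8 TPM. CCL20, PPBP, CCL7, CXCL3 and CXCL5 were called at levels below 10 TPM. The calls of CCL7, CXCL3 and CXCL5 were each lost without IFN-γ library 3 (adjusted p = 0.0595, 0.0545 and 0.0857), which left 5 of 16 called higher. CCL7 also lost its call without untreated library 2 or 3 or IFN-γ library 1, and CXCL5 without any library other than IFN-γ library 2, at adjusted p of at most 0.154. CCL9 fell from 4.31, 5.04 and 5.95 TPM to 1.44, 1.76 and 1.38 TPM (log2 fold change -1.27 ± 0.13, adjusted p = 3.34e-05). CCL17 lay at 4.55, 1.71 and 2.77 TPM untreated and 1.22, 0.169 and 0.167 TPM with IFN-γ, lower in each treated library but not called (adjusted p = 0.102), and called with the replicate block (adjusted p = 0.00111).

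Among ligands of immune checkpoints 4 of 10 tested were called higher, beside 5.91% of all genes tested. CD274, the gene of PD-L1, rose from 3.86, 1.99 and 3.38 TPM to 19.6, 20.4 and 68.1 TPM, 11.7-fold in the means (log2 fold change 2.97 ± 0.43, adjusted p = 0.00066), and treated library 3 was more than 3 times either other treated library. LGALS9 (galectin-9) rose from 149.7, 109.8 and 129.7 TPM to 397, 310.0 and 354 TPM. CD47, a phagocytosis inhibitor, rose from 119, 108 and 82.7 TPM to 209, 189 and 224 TPM. TNFRSF14 (HVEM) was called at 1.27 ± 0.36 (adjusted p = 0.0478), and the call was lost without any untreated library, IFN-γ library 2 or IFN-γ library 3, at adjusted p between 0.0767 and 0.192. PDCD1LG2, the gene of PD-L2, reached at most 0.0124 TPM. CD80 and CD276 had log2 fold changes of 0.13 and -0.01. The replicate block called 7 of 10, adding VTCN1, PVR and NECTIN2, beside 1353 of all 11878 genes tested called higher.

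**Figure D3:**
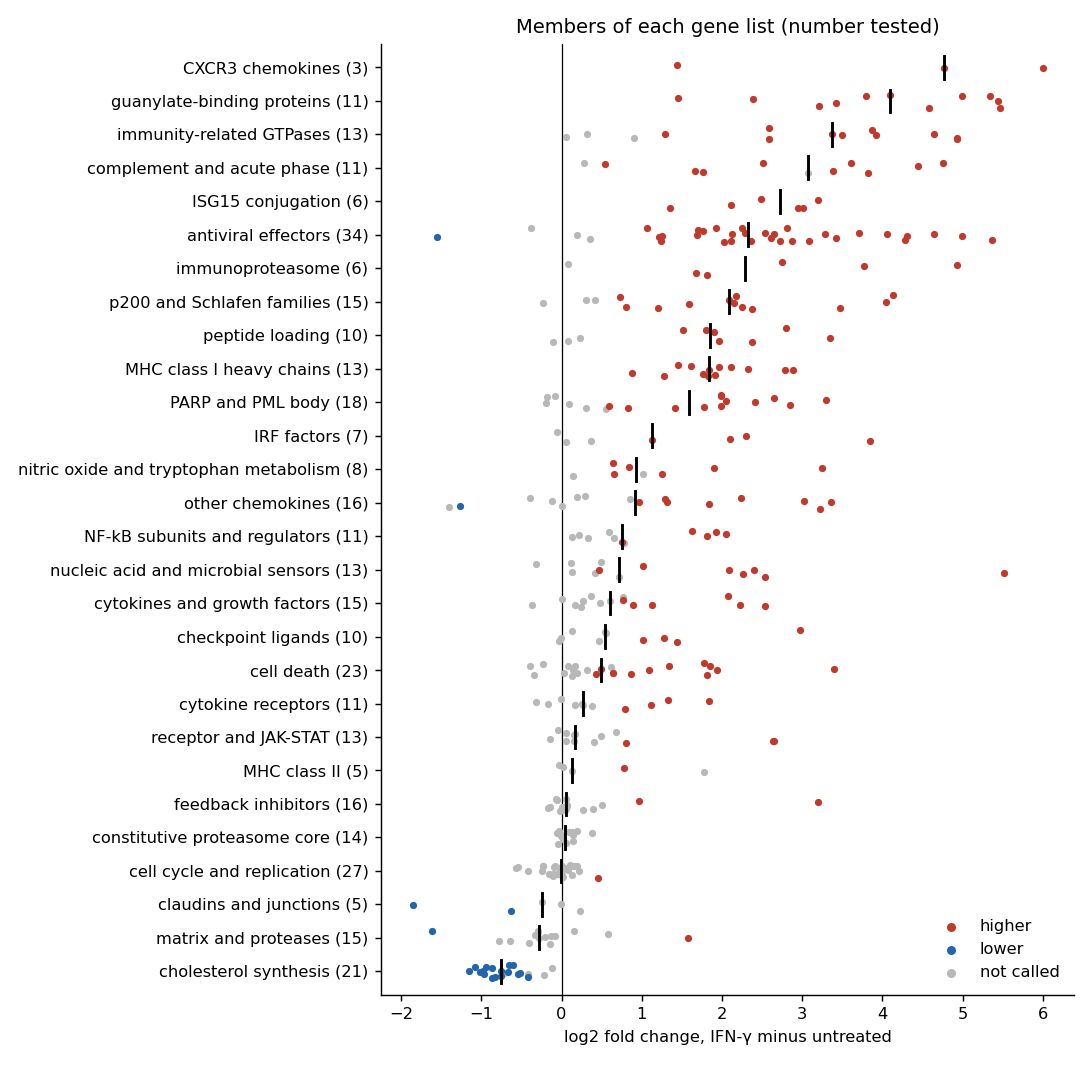
Log2 fold change, IFN-γ minus untreated, for each tested member of 28 gene lists on the x axis, with lists ordered by their median (black bar) and the number tested in brackets. Guanylate-binding proteins, MHC class I heavy chains and ISG15 conjugation genes are called higher throughout, while 17 of 21 cholesterol synthesis genes are called lower.

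Of 34 antiviral effectors tested 30 rose and 1 fell, with a median log2 fold change of 2.33. The 6 IFIT genes, whose proteins bind viral RNA and sit together on chromosome 19, rose by 1.69 for IFIT2 to 5.0 for IFIT3. IFIT3 rose from 8.13, 2.40 and 5.95 TPM to 130.1, 168 and 317 TPM (adjusted p = 7.64e-06), and IFIT3B is a close copy of it. The 8 oligoadenylate synthetase genes of the list rose, among them OAS3 from 32.9, 22.1 and 25.8 TPM to 105, 120.4 and 134 TPM. MX1, a dynamin-like GTPase, rose from 0.547, 0.218 and 0.53 TPM to 15.1, 27.5 and 47.6 TPM. RSAD2 (viperin) rose from 4.62, 2.18 and 4.25 TPM to 56.4, 65.2 and 179 TPM, and IFI44L by 5.37 ± 0.45. BST2 (tetherin) rose from 778, 318 and 366 TPM to 2094, 2013 and 2346 TPM and IFITM3 from 1538, 876 and 1064 TPM to 3734, 3447 and 3798 TPM. IFITM1 and IFITM2 had log2 fold changes of -0.39 and 0.19. IFI27 fell from 90.1, 117 and 97.2 TPM to 33.0, 40.4 and 28.4 TPM, with no overlap (log2 fold change -1.56 ± 0.20, adjusted p = 0.00029).

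The 6 genes of ISG15 conjugation, a ubiquitin-like modification, all rose. ISG15 itself rose from 119, 96.7 and 114 TPM to 751, 813 and 1017 TPM (log2 fold change 2.95 ± 0.25, adjusted p = 9.58e-06). The activating enzyme UBA7, the conjugating enzyme UBE2L6 and the ligases HERC6 and TRIM25 rose by 3.01, 2.12, 2.49 and 1.35. Of 15 p200 and Schlafen genes tested 12 rose, including SLFN2 from 3.43, 2.18 and 3.08 TPM to 49.6, 46.5 and 107 TPM and IFI204 from 53.9, 49.6 and 53.3 TPM to 181, 216 and 329 TPM. AIM2, the DNA sensor of the p200 family, did not pass (log2 fold change -0.23). These families hold near-identical copies, so the split between members is uncertain. Of 18 PARP and PML body genes 12 rose. The interferon-induced PARP14, PARP9 and its partner DTX3L rose by 3.30, 2.06 and 2.42, while the DNA repair enzymes PARP1 and PARP2 had log2 fold changes of -0.19 and -0.08. PML rose by 0.59 and SP100 by 1.98.

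Of 13 nucleic acid and microbial sensors tested 7 rose. ZBP1, a sensor of Z-form nucleic acid that can trigger necroptosis, went from 11.5, 2.93 and 6.41 TPM to 315, 284 and 390.2 TPM (log2 fold change 5.52 ± 0.35, adjusted p = 2.23e-06). The RNA sensors DDX58 (RIG-I), IFIH1 (MDA5) and DHX58 rose by 2.09, 2.40 and 2.53, while their adaptor MAVS had a log2 fold change of 0.12. TLR3 rose from 16.9, 7.58 and 11.9 TPM to 41.3, 54.4 and 92.0 TPM and MYD88 by 1.02. TMEM173 (STING) lay at 28.4, 21 and 25.2 TPM untreated and 39.2, 30.5 and 36.2 TPM with IFN-γ and was not called (adjusted p = 0.0595), except with the replicate block (adjusted p = 0.00118). NOD1 was called at 0.47 ± 0.13 at 0.602, 0.663 and 1.00 TPM with IFN-γ and lost its call without any 1 of the 6 libraries, at adjusted p of at most 0.177.

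Of 23 cell death genes tested 11 were called higher. CASP4, the inflammatory caspase that detects lipopolysaccharide, rose from 4.79, 1.97 and 2.57 TPM to 49.3, 26.8 and 50.4 TPM (log2 fold change 3.40 ± 0.30, adjusted p = 1.31e-05). CASP1 rose from 20.8, 12.5 and 15.4 TPM to 56.4, 47.4 and 68.1 TPM. MLKL, the executor of necroptosis, rose from 109.8, 93.4 and 109 TPM to 209, 201 and 258 TPM, while the kinase above it, RIPK3, was at 0 in all 6 libraries. FAS, the death receptor, rose from 0.772, 0.41 and 0.408 TPM to 5.04, 2.93 and 7.41 TPM, and GSDMD, the pore protein of pyroptosis, by 0.87 ± 0.11. The initiator caspases CASP8 and CASP9 had log2 fold changes of 0.15 and 0.12 and did not pass. TNFSF10, NLRP3, BAK1, BID and BCL2L11 lost their calls without 4 or 5 of the 6 libraries. The number of the 23 genes called higher was 7 without any 1 untreated library or IFN-γ library 1 and 6 without IFN-γ library 3.

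Of 8 genes of nitric oxide and tryptophan metabolism tested 6 were called higher. IDO1, which degrades tryptophan, was listed at 0 in each untreated library, and its IFN-γ values were 0.813, 0.405 and 1.25 TPM (adjusted p = 0.00729). IDO2 rose from 1.80, 1.61 and 1.72 TPM to 7.62, 7.03 and 14.0 TPM. ACOD1, the itaconate-forming enzyme, rose from 0.132, 0.0599 and 0.0502 TPM to 5.64, 4.99 and 26.0 TPM, and GCH1, which starts tetrahydrobiopterin synthesis, from 18.4, 22.1 and 16.1 TPM to 47.4, 40.7 and 50.7 TPM. NOS2, the inducible nitric oxide synthase, lay at 0.0885, 0.00859 and 0 TPM untreated and 2.29, 0.318 and 1.07 TPM with IFN-γ and did not pass (adjusted p = 0.366).

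Of 11 complement and acute-phase genes tested 9 rose, with a median of 3.07. CFB, complement factor B, rose from 0.949, 0.112 and 0.251 TPM to 56.6, 21 and 41.5 TPM (log2 fold change 4.76 ± 0.39, adjusted p = 7.64e-06). C3 rose from 2.44, 0.468 and 0.658 TPM to 50.3, 13.1 and 20.1 TPM and C1S1 from 35.6, 14.5 and 16.1 TPM to 233, 177 and 264 TPM. SAA3, an acute-phase lipoprotein gene whose promoter is shown above, rose from 6.76, 1.15 and 4.98 TPM to 175, 68.1 and 82.8 TPM. C4B rose by 3.82 ± 0.50, and C4A, a close copy, was called at 0.55 and lost the call without any library other than IFN-γ library 2, at adjusted p between 0.0792 and 0.159. In C3, SAA3 and LCN2 number 1 gave the highest value of each group. LCN2 (lipocalin-2) lay at 44.9, 3.62 and 19.3 TPM untreated and 587, 42.4 and 98.9 TPM with IFN-γ, so the groups overlapped and the gene was not called (log2 fold change 3.07 ± 1.02, adjusted p = 0.0915), although it was higher with IFN-γ in 3 of 3 numbered pairs (adjusted p = 8.69e-05 with the replicate block).

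Of 15 cytokine genes tested 6 were called higher, most of them at low levels. IL6 rose from 0.238, 0.203 and 0.407 TPM to 4.39, 4.50 and 4.27 TPM (log2 fold change 2.07 ± 0.22, adjusted p = 5.2e-05), and IL15, a growth factor of NK and memory T cells, from 2.09, 1.46 and 0.774 TPM to 8.56, 10.8 and 22.3 TPM. IL18BP, the decoy that binds IL-18, rose from 1.79, 2.11 and 2.81 TPM to 13.6, 11.5 and 17.4 TPM. CSF1, the macrophage growth factor, was the most abundant, rising from 233, 212 and 230.3 TPM to 436, 365 and 455 TPM. IFNB1 stayed under 1 TPM, at 0.106, 0.072 and 0 TPM untreated and 0.568, 0.941 and 0.93 TPM with IFN-γ, and its call (adjusted p = 0.0116) was lost without untreated library 3 or IFN-γ library 3, at adjusted p of at most 0.0593. TNF and IFNG were at 0 in all 6 libraries. With the replicate block 9 cytokine genes were called higher and 1 lower, beside 1353 and 576 of all 11878 genes tested. Among 11 cytokine receptors 4 were called higher, IL13RA2, a decoy receptor for IL-13, going from 0.408, 0.364 and 0.29 TPM to 3.88, 4.52 and 3.24 TPM. Of 4 adhesion ligands tested only VCAM1 was called, beside 5.91% of all genes tested called higher. It was called at 0.82 ± 0.21 (adjusted p = 0.0311), and not without untreated library 2 or 3 or IFN-γ library 3 (adjusted p = 0.093, 0.128 and 0.125). ICAM1 stayed below 1 TPM.

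Of 11 NF-kB genes 5 were called higher. RELB rose from 11.9, 13.8 and 10.3 TPM to 39.8, 37.9 and 57.9 TPM (log2 fold change 1.82 ± 0.22, adjusted p = 0.000143). NFKBIA, the inhibitor IkBα, rose from 21.4, 17.2 and 11.9 TPM to 68.1, 57.2 and 91.6 TPM, and NFKBIE and BCL3 by 1.93 and 1.63. TNFAIP3 (A20) was called at 0.76 and lost the call without 4 of the 6 libraries, untreated 2 and 3 and IFN-γ 2 and 3, at adjusted p of at most 0.0871. The subunits RELA, REL and NFKB1 had log2 fold changes of 0.34, 0.13 and 0.21 and did not pass. With the replicate block 8 of 11 were called, adding NFKB2, NFKBIB and NFKBIZ, beside 1353 of all 11878 genes tested called higher. The fractalkine receptor CX3CR1 lay between 0.0439 and 0.122 TPM in the 6 libraries, and CX3CL1 itself at no more than 0.0178 TPM.

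Of 27 cell cycle and replication genes 1 was called higher, beside 5.91% of all genes tested. This gene was MYC, at 0.45 ± 0.13 (adjusted p = 0.0483). Its call was lost without any library but untreated library 3, at adjusted p between 0.06 and 0.169. The proliferation marker MKI67 lay at 78.7, 71.6 and 83.2 TPM untreated and 58.2, 72.0 and 80.1 TPM with IFN-γ. The cyclins CCNA2, CCNB1 and CCNE2 had log2 fold changes of -0.42, -0.24 and -0.56. The median of the list was -0.0062. CDKN1A, the inhibitor p21, had a log2 fold change of -0.08 ± 0.25.

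Genes of cholesterol synthesis and its control fell, with 17 of 21 tested called lower, against 1.94% of all genes, with a median log2 fold change of -0.75. HMGCS1, at the entry of the mevalonate pathway, fell from 324, 192 and 255 TPM to 120.3, 107 and 128 TPM (log2 fold change -1.08 ± 0.16, adjusted p = 0.000816). IDI1, the isomerase of the isoprenoid branch, fell from 67.5, 52.5 and 57.4 TPM to 22.5, 27.4 and 27.9 TPM. For both genes each treated library lay below each untreated library. SQLE, which forms squalene epoxide, fell by 0.76 ± 0.13 on the log2 scale, and LSS, which closes the sterol ring, from 38.4, 32.3 and 34.1 TPM to 23, 18.6 and 19.5 TPM. CYP51, MSMO1 and NSDHL, which remove methyl groups of lanosterol, fell by 0.98, 0.97 and 1.01. INSIG1, a sterol-regulated brake on the pathway, fell from 155, 92.3 and 128 TPM to 78.1, 56.3 and 67.1 TPM. MVK, HSD17B7 and SREBF2 were not called, at -0.42, -0.72 and -0.22, and the replicate block added MVK and HSD17B7. Leaving out 1 library at a time left 13 to 18 members called, and MVD, EBP, SC5D and DHCR7 were those that lost a call, at adjusted p of at most 0.112. A fall of at least 1 on the log2 scale was seen in 3 members.

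**Figure D4:**
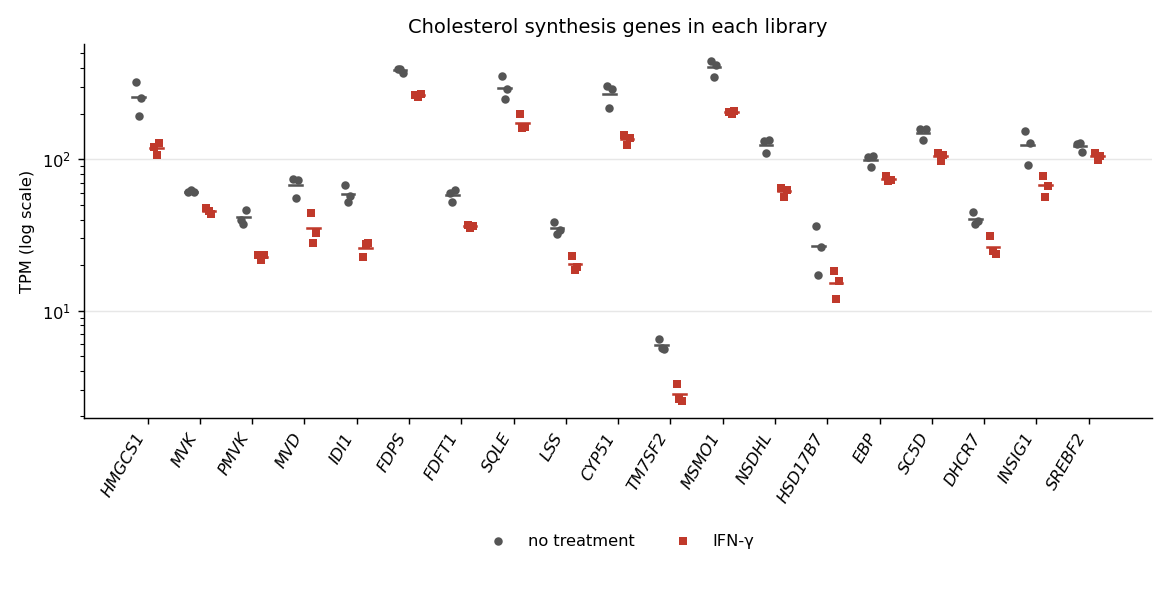
TPM on a log scale for 19 of the 21 cholesterol synthesis genes tested, with untreated libraries as grey circles, IFN-γ libraries as red squares and group means as bars. The IFN-γ values sit below the untreated values in all shown but HSD17B7, where the groups overlap.

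CLDN6 had the largest fall among the genes called lower. This tight-junction claudin went from 230.3, 245 and 275 TPM to 65.8, 71.6 and 67.3 TPM, 0.273 times the untreated mean (log2 fold change -1.86 ± 0.11, adjusted p = 1.69e-06), and the treated libraries stayed within 6 TPM of each other. COL3A1, a fibrillar collagen, fell from 11.1, 9.82 and 9.76 TPM to 2.12, 4.03 and 2.13 TPM (log2 fold change -1.61 ± 0.22, adjusted p = 0.000391). S100A4, a calcium-binding protein of motile cells, lay at 3587, 6966 and 6404 TPM untreated and 1157, 2893 and 1747 TPM with IFN-γ (log2 fold change -1.59 ± 0.37, adjusted p = 0.0196). Its groups did not overlap, but the call was lost without untreated library 2 or 3 or IFN-γ library 1 or 3 (adjusted p = 0.0809, 0.0923, 0.0899 and 0.072). OMD and COX7A1 lost their calls without untreated library 3 (adjusted p = 0.0602 and 0.0644). RERG, a RAS-like growth inhibitor, fell from 5.71, 3.00 and 5.23 TPM to 1.29, 0.556 and 0.769 TPM, and SERPINF1, an inhibitor of vessel growth, from 54.8, 31.9 and 53.7 TPM to 22.8, 14.3 and 16.9 TPM. H60B, a ligand of the NK receptor NKG2D, fell from 11.1, 16.9 and 16.7 TPM to 5.18, 7.39 and 5.11 TPM. CES1G, BPIFB4, MGP, KAZALD1 and KLHDC8A were the rest of the 15 largest falls, at -1.44 to -1.18. The lowest log2 fold change of all genes belonged to OGN, a matrix proteoglycan named here after its values were seen. OGN lay at 260.1, 36.4 and 81.2 TPM untreated and 46.9, 5.90 and 13.7 TPM with IFN-γ (log2 fold change -2.45 ± 0.82, adjusted p = 0.0951). The groups overlapped, number 1 being the highest in each, and each treated value lay below the untreated value of its number (adjusted p = 2.43e-05 with the replicate block).

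Of 15 matrix genes tested MMP13, a collagenase, rose from 2.00, 1.16 and 1.15 TPM to 7.62, 4.62 and 6.52 TPM (adjusted p = 0.000839) and COL3A1 fell. These single calls stand beside 5.91% of all genes tested called higher and 1.94% called lower. The replicate block called 2 higher and 7 lower, beside 1353 and 576 of all 11878 genes tested. It added COL1A1, COL1A2, COL4A2, COL6A1, FN1, TIMP2 and MMP9. Of 5 claudin and junction genes CLDN9 also fell, from 1.45, 2.18 and 2.14 TPM to 0.775, 1.01 and 0.836 TPM (adjusted p = 0.0348), and its call was lost without any library but untreated library 1, at adjusted p of at most 0.142. KRT18 fell from 34.1, 48.3 and 53.6 TPM to 27.2, 29.5 and 25.9 TPM (adjusted p = 0.0346), and its call was likewise lost without any library but untreated library 1, at adjusted p of at most 0.164. VIM lay at 4034, 4831 and 3658 TPM untreated and 2423, 3549 and 2724 TPM with IFN-γ, lower in each treated library without being called (adjusted p = 0.164), and called with the replicate block (adjusted p = 0.014). Of the 6 mesenchymal markers that block called 2 higher and 3 lower, adding DCN, PDGFRA and PDGFRB as well as VIM.

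The same cytokine was also given in combination with CX3CL1, and the cells given both were set against those given CX3CL1 alone. The labels give no order of addition, while the study's text puts CX3CL1 after the inflammatory cytokines. These libraries share no sample with the comparison above, but the same fit of all 12 libraries gave both sets of calls. The calls therefore share an estimate of the spread and are not independent. In these libraries IFN-γ raised 447 genes (3.76%) and lowered 111 (0.935%). With only these libraries fitted it raised 286 and lowered 58, and with the replicate block in the fit of all 12 libraries 1035 and 334. Without library 3 of the cells given both it raised 221 and lowered 49, and it lowered 67 without CX3CL1 library 1 and 71 without library 1 of the cells given both. Of the 702 genes called higher without CX3CL1, 697 had a positive log2 fold change with it and 383 were called, 54.6% of the 702 and 85.7% of the 447. Of the 230 called lower, 226 were negative and 90 were called, 39.1% of the 230 and 81.1% of the 111. Both sets were chosen on the values without CX3CL1, and shares of positive or negative changes over all genes are not given here. The median log2 fold change was 0.839 without and 0.632 with CX3CL1 in the genes called higher. In those called lower it was -0.630 and -0.467. For ISG15 the values with CX3CL1 alone lay above all untreated values, a difference not tested here. ISG15 lay at 524, 320.5 and 684 TPM with CX3CL1 and 624, 915 and 1095 TPM with both, a log2 fold change of 0.81 ± 0.25 against 2.95 ± 0.25 without CX3CL1. CD274 lay at 6.12, 5.79 and 8.13 TPM with CX3CL1 and 34.7, 27.4 and 72.2 TPM with both, and CLDN6 had a log2 fold change of -2.20 ± 0.11.

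Whether the effect of IFN-γ differed with CX3CL1 was tested as an interaction, and limma called no gene, with 273 genes at an unadjusted p under 0.05. The genes of lowest p were OAS3, RTP4, DDX58, XAF1 and GBP3, each with a smaller fitted rise in the CX3CL1-treated cells, the differences being -1.49 ± 0.21, -1.45 ± 0.21, -1.47 ± 0.23, -1.62 ± 0.26 and -2.48 ± 0.41 on the log2 scale (limma, adjusted p = 0.0792 for each). With the replicate block 52 genes were called, 49 of them with a smaller effect under CX3CL1, and all 49 were among those called higher by IFN-γ alone. Without untreated library 1 the interaction called 11 genes, and without library 2 of the cells given both 1 gene.

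**Figure D5:**
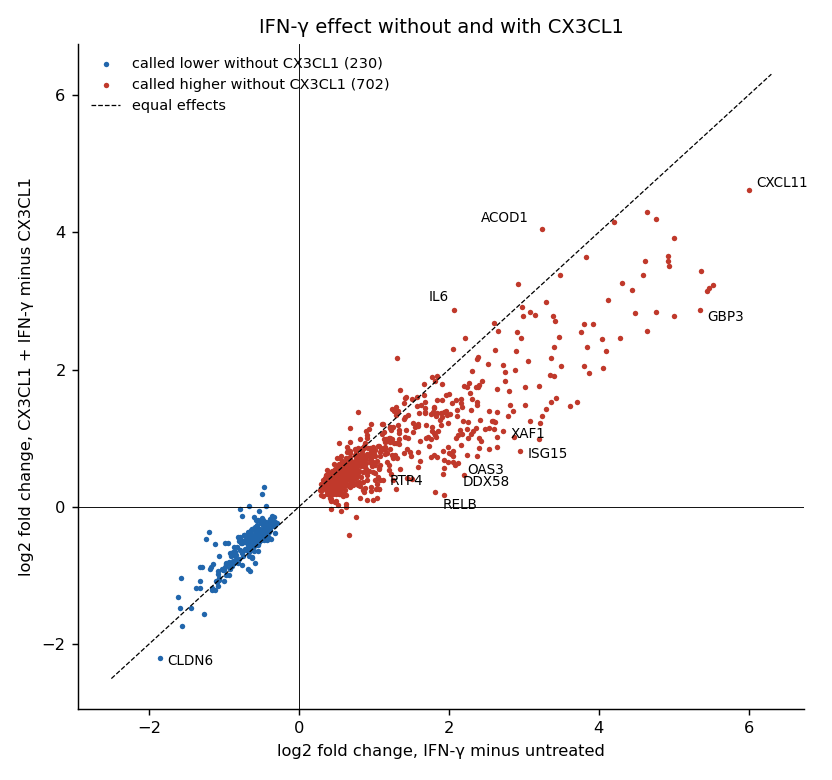
Log2 fold change of IFN-γ against no treatment on the x axis and of CX3CL1 plus IFN-γ against CX3CL1 on the y axis, for the 702 genes called higher (red) and 230 called lower (blue) without CX3CL1, which were chosen on the x values. The dashed line marks equal effects, and the genes of lowest interaction p, OAS3, RTP4, DDX58, XAF1 and GBP3, lie below it.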

How the data were processed

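Messenger RNA libraries were made from CT26 cells with a strand-specific kit, 3 per group in 4 groups. Per the labels and the study's methods, the authors aligned reads with STAR 2.7.3a to mm10 and deposited a table of TPM (transcripts per 1000000) for 23636 gene symbols; the submitters' processing notes also list DESeq2 1.22.1. How counts became TPM and the annotation are not given in the sources used here. The TPM of each library sum to 1000000, so a gene's share can fall as others rise, and no counting error can be given. Of the symbols, 6747 were at 0 throughout, 26 read as dates, as spreadsheets write some symbols, and 2 repeated.

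The 11878 genes whose mean TPM over the 12 libraries was 0.2 or more were analysed on log2(TPM + 1) with limma 3.58.1 (R 4.3.3; group means of all 12 libraries, empirical Bayes with intensity trend, two-sided, Benjamini-Hochberg over all genes). The IFN-γ effect within CX3CL1-treated cells and the interaction came from the same fit. The procedure was run on simulated data with independent errors, no effect of the replicate number and changes placed only in genes above a minimum level. That simulation therefore covers neither the shared deviations described below nor changes in genes near 0. A single-gene exact permutation test of 3 against 3 libraries cannot go below p = 0.1 and was not used. The labels number the replicates 1 to 3 in each group. Same-numbered untreated and IFN-γ libraries deviated together from their group means (correlations across genes of 0.43, 0.46 and 0.22; at most 0.08 between unlike numbers), so fits with the number as a block are given where they changed a call. Members, gene lists and the rule for named genes were chosen with earlier results of these data known. Named are members of the lists, the 15 largest rises and 15 largest falls among called genes with non-overlapping groups, the 5 largest further rises with a pseudocount of 0.1 TPM, and the 5 genes of lowest interaction p. Positions come from GENCODE vM21 (11721 genes tested matched) and promoters from RefSeq GRCm38.p6. CXCL11, ZBP1, IIGP1, CFB and LY6A had no promoter window in that table and IFI44L and PSMB9 had no match, so the next genes by size of rise were shown. Reads were not used here, and a few members that count in the totals of their lists are not reported here by name.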

Additional observations from a re-analysis of the deposited data

How the results depend on the processing

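The counts of genes called in the IFN-γ comparison stayed within 1.5 times the reported 702 higher and 230 lower under a pseudocount of 0.1 TPM, no filter on low TPM, a mean of at least 1 TPM and no intensity trend. The higher count moved to 1353 with the replicate block, 1637 with the replicate block in a fit of only the libraries compared and 299 when a log2 fold change of at least 1 was also asked. The lower count moved to 351 with median-ratio scaling, 538 with quantile normalization, 576 with the replicate block, 437 with only the libraries compared, 996 with both of these and 32 with the fold threshold. Leaving out 1 library gave 423 to 632 higher and 99 to 162 lower. For the cells given both against CX3CL1 alone, the higher count was 1035 with the replicate block. It was 286 with only the libraries compared and 210 with the fold threshold. The lower count was 187 with median-ratio scaling, 224 with quantile normalization and 334 with the replicate block. It was 58 with only the libraries compared and 20 with the fold threshold. Leaving out 1 library gave 221 to 511 higher and 49 to 157 lower. The interaction called 1 gene after quantile normalization, 52 with the replicate block and 0 to 11 without 1 library. Among the gene lists, cell death held 6 calls with no filter, 7 with the fold threshold and 6 to 11 without 1 library, and chemokines outside the CXCR3 ligands held 5 to 8 without 1 library. Nitric oxide and tryptophan metabolism held 3 with the fold threshold, as did cholesterol synthesis. Cytokines held 10 with the replicate block when only those libraries were fitted. NF-kB genes held 8 with the replicate block, 8 with only the libraries compared and 9 with both. Of 217 named genes called, 186 were called in each of 15 refits and 31 lost the call in at least 1, and none changed direction. The cause of these changes was not tested, except that the fold threshold removes calls by construction. The replicate block took no call from a named gene and added 46. Depth is unknown, so differences near 1 TPM carry a counting error that these files do not show.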

Other observations

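Of the genes called, 521 of those higher and 206 of those lower were in none of the gene lists, and the groups below were chosen after their values were seen and were not tested as groups. LY6A (Sca-1), a surface protein used as a stem-cell marker, lay at 78.5, 30.6 and 27.9 TPM untreated and 1108, 762 and 1252 TPM with IFN-γ (log2 fold change 4.61 ± 0.38, adjusted p = 7.64e-06), and 4 of 6 tested LY6 genes were called higher. All 3 PHF11 genes rose, PHF11D from 22.7, 11.7 and 20.2 TPM to 158, 156 and 214 TPM. Of 39 TRIM genes, ubiquitin ligases of which several act on viruses, 11 were called higher and 1 lower. TRIM30A rose from 32.0, 16.6 and 24.6 TPM to 98.5, 126 and 183 TPM and TRIM21, a cytosolic antibody receptor, from 8.51, 5.26 and 7.74 TPM to 28.0, 31.0 and 52.2 TPM. Of 20 serpins 11 were called higher, 6 of them SERPINB9 or its close copies, and their split is uncertain. MPEG1 (perforin-2), an antibacterial pore protein, rose from 0.313, 0.0425 and 0.038 TPM to 36.1, 8.38 and 24.3 TPM. GM4841 was, like MPEG1, among the largest further rises with a pseudocount of 0.1 TPM. It kept its call under 16 alternatives to the main fit, at log2 fold changes between 2.947 and 5.998. PRL2C2, a proliferin gene with close copies, rose from 2.34, 2.49 and 1.93 TPM to 32.4, 59.9 and 45.0 TPM (log2 fold change 3.81 ± 0.25, adjusted p = 2.89e-06).

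Of 13 fatty acid synthesis genes tested 5 were called lower, with a median log2 fold change of -0.24. The chain elongase ELOVL6 fell from 104, 91.3 and 94.6 TPM to 40.7, 48.1 and 38.2 TPM and the acetyl-CoA synthetase ACSS2 from 15.4, 11.2 and 13.0 TPM to 7.16, 6.07 and 6.51 TPM. ACAT2, the thiolase ahead of HMGCS1, fell from 174, 151 and 167 TPM to 81.3, 72.2 and 81.0 TPM (log2 fold change -1.06 ± 0.086, adjusted p = 7.64e-06). NDUFA4, a subunit of respiratory cytochrome oxidase, fell from 972, 1561 and 1318 TPM to 521, 690.0 and 536 TPM. Of 47 genes with NDUF symbols 2 were called lower, beside 1.94% of all genes tested, and their median was -0.09. Of 77 cytosolic ribosomal protein genes 1 was called lower, beside the same 1.94%, and their median was -0.05.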
